A study of Mus musculus with 12 samples.

Results

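The mRNA of 10 nuclear receptors that liver expresses was followed in mouse liver, chosen by gene symbol among the 54532 gene IDs of the expression table. They were Nr1h4 (the bile acid receptor FXR), Nr0b2 (SHP), Nr5a2 (LRH-1), Nr1h3 (the oxysterol receptor LXR alpha), Nr1i2 (PXR), Nr1i3 (CAR), Ppara (the fatty acid receptor PPAR alpha), Rxra (RXR alpha, the partner of several of them), Hnf4a (HNF4 alpha) and Esrra (ERR alpha). All 10 were found, and all 10 were above the level at which genes were tested.

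Nuclear receptors are transcription factors with a DNA-binding domain of paired zinc fingers and, in most members, a pocket that binds a lipid-soluble ligand. FXR, LXR, PXR, CAR and PPAR alpha bind DNA as heterodimers with RXR alpha, and HNF4 alpha binds as a homodimer and holds hepatocytes in their differentiated state. SHP lacks a DNA-binding domain and represses other receptors, and in liver it takes part in the feedback by which bile acids lower their own synthesis.

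The livers came from wild-type mice of the inbred strain C57BL/6J, in 4 groups of 3 libraries. The groups were a diet that the labels call CD and do not spell out (CD), a high-fat diet (HFD), and each of these diets with 2% dextran sulfate sodium (CD_DSS and HFD_DSS). Dextran sulfate sodium (DSS) is a sulfated polysaccharide that injures the colon epithelium and is given to mice to induce colitis. Expression was given as FPKM, fragments scaled to gene length and library depth, so levels of different genes are compared per length.

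Depth was 23.4 to 29.4 M fragments a library. Nothing in the labels tells whether each library of a group is its own animal. The p-values therefore measure only how far these samples spread, which may be technical. The libraries HFD 1, CD_DSS 1 and HFD_DSS 2 stood between the other untreated and the other DSS libraries on the first principal component, and results are given with and without them where they decide a call. The summed FPKM of 24 acute phase genes was 23865 in HFD 1 against 10347 and 11230 in the other HFD libraries. It was 13632 in CD_DSS 1 against 38719 and 41443 in the other CD_DSS libraries, and 23405 in HFD_DSS 2 against 54259 and 55807 in the other HFD_DSS libraries. All 7 hepatocyte markers measured were expressed, among them albumin (Alb), so the tissue carried its label. In bulk tissue, fewer cells of a type and less RNA per cell cannot be told apart.

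Hnf4a and Esrra were the members that changed, and the stretches around their transcription starts, each 250 bases before and 50 bases after a start, are shown for that reason. Hnf4a lies on chromosome 2 from 163506808 to 163572910 on the plus strand (mm10) and has a pair of annotated starts that lie 40298 bases apart. Adult liver is known to use mainly the downstream one (P1), and the deposited value counts the whole gene, so transcripts of P1 and P2 are not separated. Esrra lies on chromosome 19 from 6910977 to 6921813 on the minus strand. The sequences are those of RefSeq for GRCm38.p6, from chr2:163506607-163506906 (plus strand, P2), chr2:163546905-163547204 (plus strand, P1) and chr19:6921759-6922058 (minus strand, Esrra), each written 5′ to 3′. Capitals mark a match to one of the motifs named after the sequences.

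Hnf4a P2: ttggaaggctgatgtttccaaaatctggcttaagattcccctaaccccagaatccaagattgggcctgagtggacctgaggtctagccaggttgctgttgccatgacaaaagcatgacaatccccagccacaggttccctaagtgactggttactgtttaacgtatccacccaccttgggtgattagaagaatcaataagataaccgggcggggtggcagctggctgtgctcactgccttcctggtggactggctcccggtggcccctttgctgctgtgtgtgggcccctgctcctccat

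Hnf4a P1: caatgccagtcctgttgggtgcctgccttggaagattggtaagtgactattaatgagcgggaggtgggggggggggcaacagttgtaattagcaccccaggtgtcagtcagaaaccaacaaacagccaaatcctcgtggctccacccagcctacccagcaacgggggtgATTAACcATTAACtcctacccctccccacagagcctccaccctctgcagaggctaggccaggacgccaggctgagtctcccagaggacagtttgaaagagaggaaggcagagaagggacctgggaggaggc

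Esrra: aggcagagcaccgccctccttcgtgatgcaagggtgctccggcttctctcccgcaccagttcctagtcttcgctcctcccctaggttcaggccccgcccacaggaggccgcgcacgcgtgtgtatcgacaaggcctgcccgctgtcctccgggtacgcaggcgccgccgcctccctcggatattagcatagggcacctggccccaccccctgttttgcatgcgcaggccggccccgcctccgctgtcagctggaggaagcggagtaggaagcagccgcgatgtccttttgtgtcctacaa

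The P1 window held ATTAAC, a half-site of the HNF1 motif, from 81 to 76 and again from 74 to 69 bases before the start, both on the plus strand. HNF1 alpha is a known activator of this promoter, and 7.10% of 32851 promoter windows of the same length held ATTAAC. Windows of Nr1h4 (40 to 35 bases before the start) and Nr5a2 (236 to 231) also held it, on the opposite strand. Neither of these members was called in the main analysis, so the half-site is not particular to Hnf4a. The P2 and Esrra windows held no exact match to any motif searched. For HNF1 only the exact half-site was searched, and the full HNF1 motif and variants of the half-site were not. The search therefore cannot tell whether P2 lacks an HNF1 site, and no contrast between P1 and P2 is drawn from it. The search covered both strands for the receptor half-site AGGTCA (in 16.3% of all windows), the signal transducer motif TTCNNNGAA (8.30%), the HNF4 motif CAAAGTCCA (0.475%), the core TCAAGG of the extended half-site bound by LRH-1 and ERR alpha (14.4%) and the whole of it, TCAAGGTCA (0.423%). It also covered the direct and the inverted repeat of AGGTCA with 1 base between the copies (in 0.0396% and 0.00913% of windows). TCAAGGTCA contains TCAAGG, and both repeats contain AGGTCA. A match is a stretch of letters, not a bound site.

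Hnf4a was the most abundant member and rose with DSS on both diets. With the libraries of each group in the order 1 to 3, here and for the genes that follow, it had 161, 160.3 and 159 FPKM in CD, 152, 135 and 148 in HFD, 206, 208 and 263 in CD_DSS, then 225, 198 and 233 in HFD_DSS. Each of the 6 DSS libraries lay above each of the 6 untreated ones, whose means were 222 ± 23.7 and 153 ± 9.98 FPKM (SD, n = 6). On the log2(FPKM + 1) scale, the scale of every fold change given here, the rise was 0.48 with the CD diet (SE 0.11, limma adjusted p = 0.0385) and 0.59 with HFD (SE 0.11, limma adjusted p = 0.0228). The mean of both DSS effects was 0.53 (95% interval 0.36 to 0.71, limma adjusted p = 0.00231), a 1.45-fold rise. Without the 3 libraries that stood apart, Hnf4a rose by 0.54 on the CD diet (limma adjusted p = 0.0108) and by 0.69 under HFD (limma adjusted p = 0.00572). Those 3 were picked from these data for standing between the groups, so leaving them out favours calls with DSS. Over all genes the calls then went from 519 to 1941 on the CD diet and from 522 to 2028 on the high-fat diet. For the mean DSS effect they went from 2157 to 3359. Values and counts given here without these 3 are therefore no separate support.

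Esrra, which drives genes of mitochondrial respiration, was the member that fell. It had 9.88, 11.2 and 12.5 FPKM in CD, 10.4, 10.1 and 10.8 in HFD, 8.73, 7.93 and 6.66 in CD_DSS, then 5.63, 5.89 and 8.47 in HFD_DSS. All 6 DSS libraries lay below all 6 untreated ones, with means of 7.22 ± 1.34 against 10.8 ± 0.958 FPKM (SD, n = 6). The log2 fold change was −0.59 on the high-fat diet (SE 0.14, limma adjusted p = 0.0375) and −0.48 on the CD diet, where the test was not passed (SE 0.14, limma adjusted p = 0.0782). The mean of both DSS effects was −0.54 (95% interval −0.75 to −0.32, limma adjusted p = 0.00543). Without the 3 libraries that stood apart, the call moved from the high-fat diet (−0.53, limma adjusted p = 0.0645) to the CD diet (−0.55, limma adjusted p = 0.0427). The difference between the DSS effects of both diets was −0.12 for Esrra (95% interval −0.55 to 0.32) and 0.11 for Hnf4a (−0.25 to 0.46). Esrra shares 3.74% of its exon bases with other genes.

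**Figure D1:**
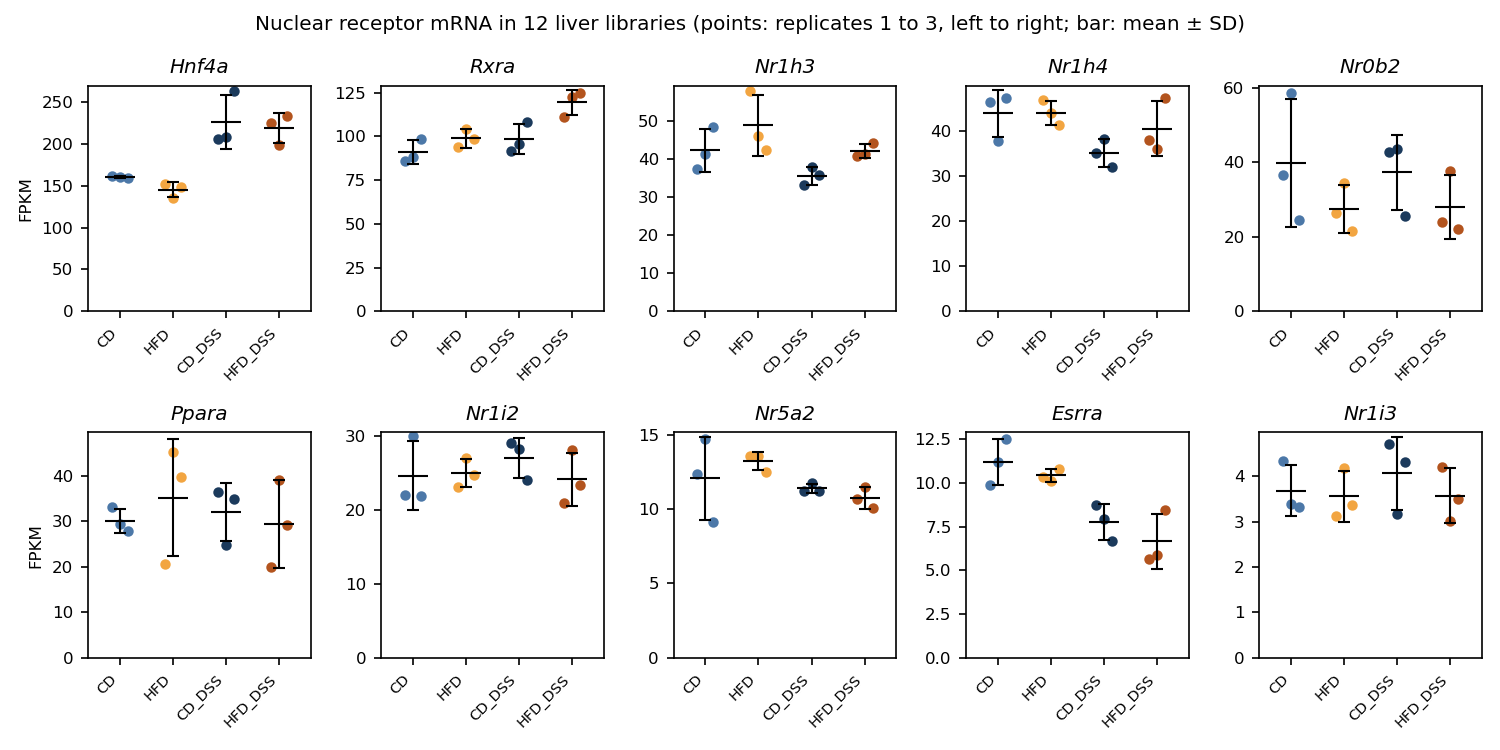
FPKM (y axis, from 0) of the 10 receptors in each library by group (x axis); points are replicates 1 to 3 and bars are the mean ± SD. The 6 DSS libraries of Hnf4a (198 to 263 FPKM) lie above the untreated ones and those of Esrra (5.63 to 8.73 FPKM) below them, while the groups of Nr0b2, Ppara, Nr1i2 and Nr1i3 overlap.

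Read against all genes, 1 of 10 members was called on the CD diet, where 4.80% of 10806 tested genes were called (2.01% higher and 2.79% lower). On the high-fat diet 2 of 10 were called, with 4.83% of all genes called (1.73% higher and 3.10% lower). For the mean DSS effect 2 of 10 were called, 1 in each direction, where 20.0% of all genes were called, 8.72% higher and 11.2% lower, so the members' share was that of the background. With values scaled to TPM, called genes split the other way, 59.4% of them being higher against 43.7% here, 61.2% against 41.8% on the CD diet and 67.6% against 35.8% on the high-fat diet, and both members kept their direction. Groups that did not overlap were seen for 2 members on the CD diet (27.0% of all genes), for 4 on the high-fat diet (27.1%) and for 2 between all DSS and all untreated libraries (6.59%).

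The single calls on each diet depended on which libraries were kept. The CD diet call of Hnf4a was lost without CD 1 (limma adjusted p = 0.0872), CD 2 (0.122), CD 3 (0.109), HFD 2 (0.0518), HFD 3 (0.0577), CD_DSS 2 (0.0791), CD_DSS 3 (0.143) or HFD_DSS 3 (0.0541), with a log2 fold change of 0.37 to 0.54 in these fits. The high-fat diet call of Hnf4a was lost without HFD 2 (0.109), HFD 3 (0.0610), HFD_DSS 1 (0.0961) or HFD_DSS 3 (0.0910), with changes of 0.54 to 0.60. Esrra on the high-fat diet lost its call without CD 2 (0.0599), HFD 1 (0.0548), HFD 2 (0.135), HFD 3 (0.10004), CD_DSS 2 (0.0544), HFD_DSS 1 (0.1505) or HFD_DSS 2 (0.0636), with changes of −0.62 to −0.50. On the CD diet Esrra gained a call without CD_DSS 1 (−0.55, 0.0429) or HFD_DSS 3 (−0.48, 0.0460). The mean DSS effects of both genes passed the test in all 23 alternative analyses, with adjusted p-values up to 0.00864 for Hnf4a and 0.0174 for Esrra.

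The summed level of the acute phase genes and Hnf4a were both higher in the DSS groups. Within HFD, CD_DSS and HFD_DSS the libraries had the same order in both, and within CD they did not. An order of 3 libraries is weak evidence, and in CD_DSS it rests on 206.3 against 208.2 FPKM of Hnf4a in libraries 1 and 2. How many other genes follow the acute phase sum was not counted, so this order is not shown to be particular to Hnf4a. HFD 1, with the highest acute phase sum of its group (23865 FPKM), had the highest Hnf4a of that group (152 FPKM), below the highest untreated library (161). CD_DSS 1 and HFD_DSS 2 had the lowest acute phase sums of their groups (13632 and 23405 FPKM) and the lowest Hnf4a (206 and 198 FPKM), both above every untreated library. For Esrra the order was the opposite of that of the acute phase sum within CD_DSS, where CD_DSS 1 had the highest level (8.73 FPKM), and not within CD, HFD or HFD_DSS. HFD 1 had 10.4 FPKM of Esrra and HFD_DSS 2 had 5.89, so each of the 3 libraries stayed on its own side of the gap between the DSS and untreated libraries for both receptors. Among the 24 acute phase genes 19 rose with the mean DSS effect and 1 (Hamp) fell. Over all genes 8.72% rose and 11.2% fell, shares to set beside the marker counts that follow. The 12 macrophage and Kupffer cell markers summed to 297 to 479 FPKM in untreated and 340 to 622 FPKM in DSS libraries, with 6 higher and 0 lower. None of these 12 was under 1 FPKM in every library. Neutrophil markers summed to 1.83 to 24.5 FPKM in untreated and 4.05 to 58.8 FPKM in DSS libraries, with 0 higher and 0 lower of 4 tested. Ly6g, Mpo, Elane and Cxcr2 stayed under 1 FPKM in every library. Of the 7 hepatocyte markers, 2 (Ass1 and Hpd) fell and 0 rose. Endothelial markers gave 2 higher and 1 lower of 8 tested, stellate cell markers 1 higher of 8, cholangiocyte markers 1 higher of 3 (Sox9), and T and B cell markers 1 lower of 1 (Cd4). The part of the acute phase level and of these cells in the receptor changes was not tested.

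**Figure D2:**
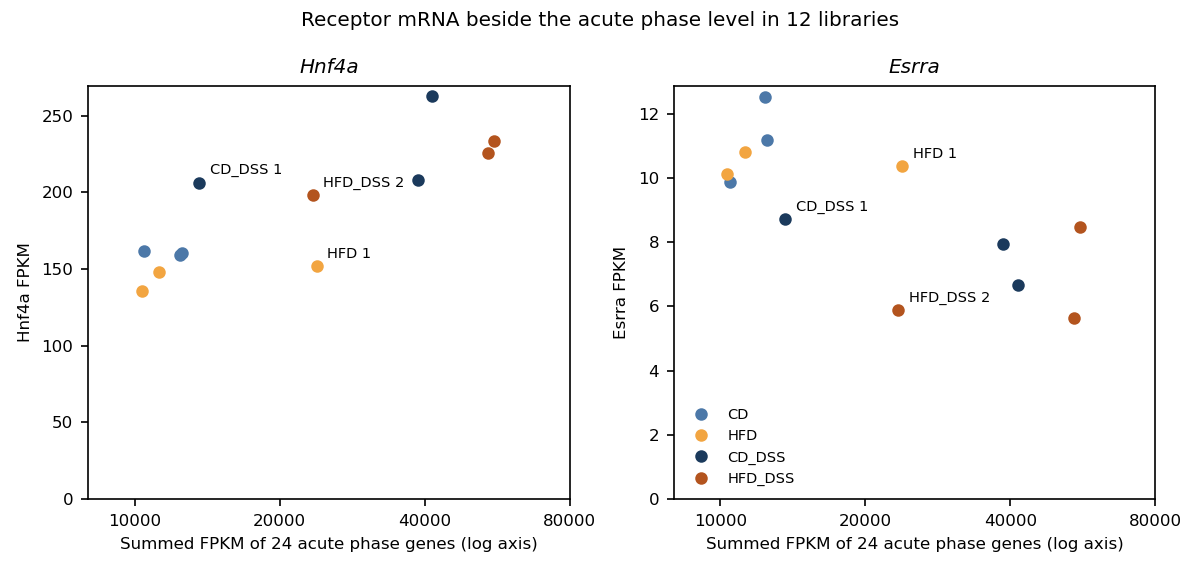
FPKM of Hnf4a and Esrra (y axes, from 0) against the summed FPKM of 24 acute phase genes (x axis, log scale) in 12 libraries, coloured by group. CD_DSS 1 (acute phase sum 13632) and HFD_DSS 2 (23405) have the lowest Hnf4a of their groups (206 and 198 FPKM), and HFD 1 (23865) has the highest of the HFD libraries (152 FPKM).

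Among the bile acid receptors, Nr1h4 encodes FXR, the receptor that senses bile acids, and lies on chromosome 10 from 89454234 to 89533585 (minus strand). It had 46.4, 37.8 and 47.3 FPKM in CD, 46.7, 43.9 and 41.2 in HFD, 34.97, 38.2 and 32.0 in CD_DSS, then 38.0, 35.9 and 47.4 in HFD_DSS. The lowest values were in DSS libraries, and HFD_DSS 3 was as high as the highest untreated library. The mean DSS effect of −0.22 (95% interval −0.41 to −0.02) did not pass the test over all genes (limma adjusted p = 0.103).

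Nr0b2, the gene of the repressor SHP, lies on chromosome 4 from 133553376 to 133556536 (plus strand) and varied widely within groups. It had 36.5, 58.5 and 24.5 FPKM in CD, 26.3, 34.4 and 21.6 in HFD, 42.7, 43.6 and 25.5 in CD_DSS, then 23.99, 37.7 and 22.2 in HFD_DSS. In all 4 groups the library numbered 2 was the highest and the library numbered 3 the lowest, and Nr5a2 had the same order. After each group's mean was taken out, Nr0b2 and Nr5a2 had an r of 0.82. Over all genes the deviations of same-numbered libraries had a median r of 0.03. The SD was 23.7 to 43.3% of the mean, and the interval of the mean DSS effect reached from −0.51 to 0.48 around −0.02. The mean diet effect was −0.43 (95% interval −0.92 to 0.06, limma adjusted p = 0.456).

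The Nr0b2 window is printed because LRH-1, another member, is known to bind this promoter. It is chr4:133553126-133553425 (plus strand, GRCm38.p6, RefSeq), with capitals for TTCNNNGAA and TCAAGG, which lay from 91 to 83 bases before the start and from 68 to 63 and 35 to 30 bases before it.

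Nr0b2: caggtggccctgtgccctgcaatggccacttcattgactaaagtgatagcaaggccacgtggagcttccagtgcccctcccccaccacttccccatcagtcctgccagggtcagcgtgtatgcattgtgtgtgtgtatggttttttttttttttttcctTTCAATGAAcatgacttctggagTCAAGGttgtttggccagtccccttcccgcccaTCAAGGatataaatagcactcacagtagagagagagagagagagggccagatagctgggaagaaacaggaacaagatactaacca

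Nr5a2, which encodes LRH-1, an activator of bile acid synthesis genes, lies on chromosome 1 from 136842571 to 136960448 (minus strand). It had 12.3, 14.7 and 9.14 FPKM in CD, 13.5, 13.6 and 12.5 in HFD, 11.2, 11.7 and 11.2 in CD_DSS, then 10.7, 11.5 and 10.0 in HFD_DSS. As for Nr0b2, the library numbered 2 was the highest and the library numbered 3 the lowest in all 4 groups. In CD_DSS libraries 1 and 3 were close (11.22 and 11.17 FPKM). CD 3 was the lowest of all 12 libraries, and the HFD libraries lay above those of HFD_DSS without overlap. The change with DSS on the high-fat diet was −0.28 (95% interval −0.56 to 0.01, limma adjusted p = 0.227), and the mean DSS effect was −0.17 (limma adjusted p = 0.226). Without CD 3 the mean DSS effect was −0.25 (limma adjusted p = 0.0275).

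Rxra, the shared partner, lies on chromosome 2 from 27676440 to 27762957 (plus strand) and was the next most abundant member after Hnf4a. It had 86.1, 88.5 and 98.6 FPKM in CD, 94.0, 104.5 and 98.5 in HFD, 91.9, 95.7 and 108 in CD_DSS, then 111, 123 and 125 in HFD_DSS. The 3 HFD_DSS libraries were the highest of all 12. The difference between HFD_DSS and HFD was 0.27 on the log2 scale (95% interval 0.05 to 0.48), without passing the test over all genes (limma adjusted p = 0.128), and it passed with quantile scaling (0.41, limma adjusted p = 0.0384) and with library weights (0.25, limma adjusted p = 0.0394). For the mean DSS effect the value was 0.19 (95% interval 0.04 to 0.34, limma adjusted p = 0.0737). It passed with quantile scaling (0.34, limma adjusted p = 0.00834), library weights (0.20, limma adjusted p = 0.0172) and median-of-ratios scaling (0.21, limma adjusted p = 0.0498). It also passed without CD_DSS 1 (0.21, limma adjusted p = 0.0478). Library weights raised the calls over all genes too, to 2820 on the high-fat diet and 4259 for the mean DSS effect.

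Nr1h3, the sterol sensor LXR alpha, lies on chromosome 2 from 91184061 to 91202834 (minus strand). It had 37.3, 41.3 and 48.4 FPKM in CD, 58.0, 46.1 and 42.5 in HFD, 33.2, 37.9 and 35.9 in CD_DSS, then 40.9, 41.3 and 44.3 in HFD_DSS. Among DSS libraries, those on the high-fat diet lay above those on the CD diet without overlap. The mean DSS effect was −0.22 (95% interval −0.41 to −0.02, limma adjusted p = 0.109) and the mean diet effect was 0.22 (95% interval 0.02 to 0.41, limma adjusted p = 0.335).

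Ppara, the sensor that switches on fatty acid oxidation in fasting, lies on chromosome 15 from 85734983 to 85802819 (plus strand). It had 33.1, 29.5 and 27.8 FPKM in CD, 20.7, 45.3 and 39.8 in HFD, 36.5, 24.8 and 34.997 in CD_DSS, then 19.9, 39.2 and 29.3 in HFD_DSS. HFD 1 and HFD_DSS 1 were the lowest of all, and the groups overlapped in every comparison. DSS on the high-fat diet gave −0.23 (95% interval −0.86 to 0.40, limma adjusted p = 0.677). Without HFD 1, CD_DSS 1 and HFD_DSS 2 the same change was −0.79 (limma adjusted p = 0.0291), so this value rests on which libraries are kept.

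The xenobiotic sensors PXR and CAR, which bind drugs and other foreign compounds or respond to them, showed no call. Nr1i2 (PXR), on chromosome 16 from 38248323 to 38294824 (minus strand), ranged from 20.95 to 30.01 FPKM over the 12 libraries. Its mean DSS effect was 0.04 (95% interval −0.18 to 0.26), and its groups overlapped in each comparison. Nr1i3 (CAR), on chromosome 1 from 171213970 to 171220701 (plus strand), was the lowest member at 3.01 to 4.72 FPKM, with a mean DSS effect of 0.05 (95% interval −0.17 to 0.28). On the opposite strand Tomm40l covers 74.9% of its exon bases, and no source used here says how strand was counted, so the Nr1i3 value is uncertain.

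**Figure D3:**
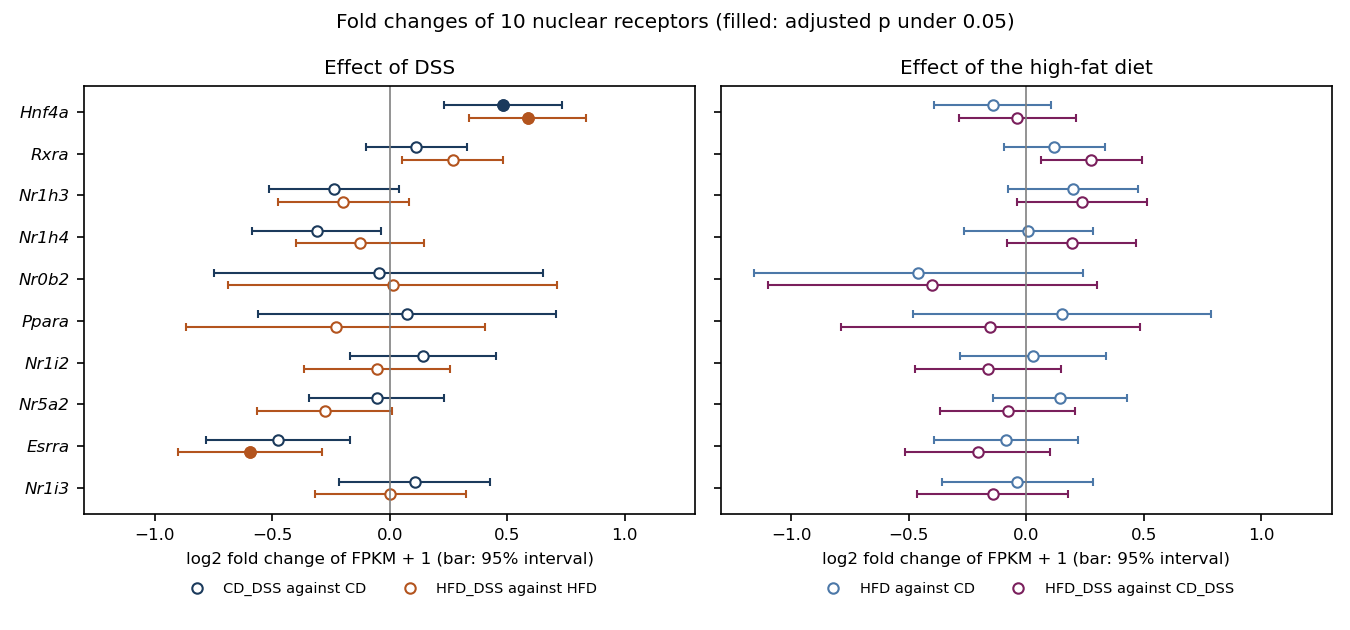
Log2 fold changes of FPKM + 1 (x axes) of the 10 receptors (y axis) with DSS on each diet (left) and with the high-fat diet without and with DSS (right); bars are 95% intervals and filled points passed the test. Filled points are Hnf4a with DSS on both diets (0.48 and 0.59) and Esrra with DSS on the high-fat diet (−0.59); the panel of diet effects has none.

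The high-fat diet changed no member past the threshold, with or without DSS. For HFD against CD, 0 of 10 members were called by limma (0 also at an unadjusted p under 0.05), as were 0.00925% of all genes. The HFD libraries of Hnf4a lay below those of CD without overlap (−0.14, 95% interval −0.39 to 0.11), and 13.1% of all genes did not overlap between these groups. For HFD_DSS against CD_DSS, 0 members were called by limma (1 at an unadjusted p under 0.05, Rxra), beside 0.102% of all genes. Rxra (0.28, 95% interval 0.06 to 0.49) and Nr1h3 (0.24, 95% interval −0.04 to 0.51) did not overlap there, as was the case for 16.5% of all genes. For the mean diet effect, 0 members were called (2 at an unadjusted p under 0.05, Nr1h3 and Rxra) beside 0.342% of all genes, and 0 had groups apart, beside 0.870% of all genes. For the difference between the DSS effects, 0 members were called (0 at an unadjusted p under 0.05) beside 0.00925% of all genes. Voom on the recovered fragments also called 0 members in each of these 4 comparisons. The comparisons share their control libraries and are not independent of each other.

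Ordered by level in CD, the members ran from Hnf4a (160.3 ± 1.08 FPKM, SD, n = 3) through Rxra (91.1 ± 6.62), Nr1h4 (43.8 ± 5.23), Nr1h3 (42.4 ± 5.62), Nr0b2 (39.8 ± 17.2), Ppara (30.1 ± 2.70), Nr1i2 (24.7 ± 4.61), Nr5a2 (12.1 ± 2.79) and Esrra (11.2 ± 1.32) to Nr1i3 (3.68 ± 0.564). The libraries of neighbours were apart between Hnf4a and Rxra, Rxra and Nr1h4, Nr1i2 and Nr5a2, and Esrra and Nr1i3. Neighbours from Nr1h4 down to Nr1i2 overlapped, as did Nr5a2 and Esrra. In HFD, CD_DSS and HFD_DSS, Nr5a2 and Esrra were apart as well, and Hnf4a, Rxra, Nr1i2, Nr5a2, Esrra and Nr1i3 kept their places in all 4 groups.

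Of 39 other nuclear receptors, 20 were tested and 16 stayed under 1 FPKM in every library, 5 of these 16 being at 0 in all. Nr1h5, Nr4a1 and Nr6a1 reached 1 FPKM in too few libraries to be tested. With the mean DSS effect 6 of the 20 fell and 1 rose, beside 11.2% lower and 8.72% higher over all genes. Their median was −0.19 against −0.01 over all tested genes. Among those that fell were Rxrg (−0.45), the thyroid hormone receptor gene Thrb (−0.42) and Nr2f2 (−0.35) (limma adjusted p = 0.0128, 0.0236 and 0.00824), together with Thra and Nr2f6, while the retinoic acid receptor gene Rarg rose (0.29, limma adjusted p = 0.0347). Rarg was low, and its means differed mainly on the CD diet. They were 1.24 FPKM in CD and 2.12 in CD_DSS, then 1.16 in HFD and 1.32 in HFD_DSS. The glucocorticoid receptor gene Nr3c1 had 13.8 ± 2.00 FPKM untreated and 11.9 ± 0.827 with DSS (SD, n = 6, limma adjusted p = 0.169). Nr1d1, a repressor of the circadian clock, gave 0.94 (limma adjusted p = 0.127). Nr1d1 and Thra overlap at their ends on opposite strands, so their values are uncertain. Of 16 coregulators, 2 fell and 0 rose (Ppargc1b −0.43 and Tbl1x −0.34, limma adjusted p = 0.0482 and 0.0249), and Ppargc1a, a coactivator of ERR alpha and HNF4 alpha, gave −0.07 (limma adjusted p = 0.671). The coregulators' median was 0.00 against −0.01 over all genes, and their share lower, 12.5%, was near the 11.2% over all genes.

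Known targets of HNF4 alpha were, where they changed, lower with DSS, while Hnf4a itself was higher. Some targets stand in more than 1 list, such as Cyp8b1, and the LXR list holds Nr1h3 itself. Of 20 listed targets 11 fell, 0 rose and 9 did not pass the test with the mean DSS effect. The median was −0.36 against −0.01 over all tested genes. Over all genes 11.2% fell and 8.72% rose with the mean DSS effect, shares to set beside this and each list count below. G6pc, the glucose-6-phosphatase that releases glucose, had 355, 334 and 403 FPKM in CD, 349.9, 269 and 242 in HFD, 147, 83.9 and 23.7 in CD_DSS, then 42.8, 79.6 and 61.5 in HFD_DSS. Every DSS library lay below every untreated one, with a mean DSS effect of −2.33 (SE 0.35, limma adjusted p = 0.00237). Cyp8b1, of bile acid synthesis, fell by 0.87 (limma adjusted p = 0.00161), the glycolytic Pklr by 0.78 (limma adjusted p = 0.0101) and the tryptophan-degrading Tdo2 by 0.76 (limma adjusted p = 0.00266). The apolipoprotein gene Apoc3 fell by 0.48 (limma adjusted p = 0.00534), whereas Apob gave 0.02 (limma adjusted p = 0.899). On the CD diet 3 of the 20 fell, on the high-fat diet 5 fell, and 0 rose on either. Over all genes 2.79% and 3.10% fell on these diets. The count of 11 was 7 with TPM scaling, with quantile scaling and without HFD 2, and 13 without the 3 libraries that stood apart. The count that rose, 0 in the main analysis, was 1 with quantile scaling and 1 without these 3 libraries.

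Listed targets of ERR alpha moved the same way as Esrra. Of 14 listed genes, among them genes of the citric acid cycle and the respiratory chain, 11 fell, 0 rose and 3 did not pass the test (mean DSS effect). The median was −0.35 against −0.01 over all genes. The ERR alpha and PPAR alpha lists share their lowest value for the mean diet effect (−0.88), so they are not separate sets of genes. Sdhb, a succinate dehydrogenase subunit, went from 76.7 ± 6.52 to 55.4 ± 3.91 FPKM (SD, n = 6), with 67.8 FPKM as the lowest untreated and 60.8 FPKM as the highest DSS library (−0.46, limma adjusted p = 0.00231). Citrate synthase (Cs) fell by 0.48 (limma adjusted p = 0.0249), Idh3a by 0.45 (limma adjusted p = 0.0159) and cytochrome c (Cycs) by 0.41 (limma adjusted p = 0.0203). On the CD diet 1 gene fell (Idh3a, −0.62), and on the high-fat diet 3 fell, Sdhb, Uqcrc1 and Ndufb5. Over all genes 2.79% fell on the CD diet and 3.10% on the high-fat diet. The count was 6 to 12 over the alternative analyses.

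Genes induced by FXR and genes repressed through SHP differed in their counts. Of 7 tested FXR-induced genes (9 listed), the bile salt export pump Abcb11 fell (−0.58, limma adjusted p = 0.0201) and Fetub rose (0.46, limma adjusted p = 0.0284). The median was −0.03 against −0.01 over all genes. Each direction held 14.3% of the tested list, near the 11.2% lower and 8.72% higher over all genes. Slc51b was at or under 1.16 FPKM throughout and was not tested. Of 5 bile acid genes repressed through SHP 4 fell and 0 rose with the mean DSS effect, with a median of −0.87. On the CD diet 2 of them fell, with a median of −1.48. On the high-fat diet 0 passed the test, with a median of −0.26, though all 5 values were below 0. Over all genes 2.79% fell on the CD diet and 3.10% on the high-fat diet. Cyp7a1, whose product sets the rate of bile acid synthesis, had 35.3, 15.6 and 46.6 FPKM in CD and 2.37, 0.379 and 1.15 in CD_DSS. On the high-fat diet it had 4.92, 6.41 and 13.3 FPKM without and 14.1, 1.44 and 15.3 with DSS. The groups were apart on the CD diet (−3.83, limma adjusted p = 0.0159) and overlapped on the high-fat diet (−0.02, limma adjusted p = 0.9896), and the difference of both effects was 3.81 (SE 0.96, limma adjusted p = 0.699). The uptake transporter Slc10a1 fell by 0.32 and Cyp7b1 by 1.26 with the mean DSS effect (limma adjusted p = 0.0187 and 0.0265).

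Of 12 LXR targets 3 fell and 0 rose with the mean DSS effect, with a median of −0.25. They were lipogenic, the desaturase gene Scd1 (−2.84, limma adjusted p = 0.0106), Srebf1 (−0.81, limma adjusted p = 0.0187) and Fasn (−0.81, limma adjusted p = 0.0352). The cholesterol exporter Abca1 gave −0.01 (limma adjusted p = 0.936). Of 26 tested PPAR alpha targets (28 listed) 4 fell, 0 rose and 22 did not pass the test, with a median of −0.09. The share that fell, 15.4%, was near the 11.2% over all genes. Acaa1b fell by 1.51 (limma adjusted p = 0.0114), the fatty acid binding protein gene Fabp1 by 0.76 (limma adjusted p = 0.0356), Pex11a by 0.33 (limma adjusted p = 0.0426) and Cpt2 by 0.31 (limma adjusted p = 0.0276). Cpt1a (0.20, limma adjusted p = 0.172), Fgf21 (0.85, limma adjusted p = 0.0963) and Cyp4a14 (1.10, limma adjusted p = 0.0527) were above 0 without passing. The PPAR alpha count was 12 lower without the 3 libraries that stood apart and 1 with TPM scaling. Over all genes 1870 fell without these 3, against 1215 in the main analysis.

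Called targets of PXR and CAR went in both directions with DSS, though 5 of 7 PXR and 6 of 7 CAR targets tested were below 0. With the mean diet effect 1 of 7 tested in each list fell, Cyp3a11 and Cyp2c29, beside 0.342% of all genes called. All 7 CAR targets were below 0 there (median −0.56), as were 5 of the 7 PXR targets (median −0.30), against 0.00 over all genes. Of 7 tested PXR targets 2 fell and 1 rose with the mean DSS effect, and of 7 tested CAR targets 3 fell and 1 rose, with medians of −0.33 and −0.45. Cyp3a11, the main PXR-induced drug oxidase, had 742, 671 and 737 FPKM in CD, 419, 492 and 415 in HFD, 913, 578 and 383 in CD_DSS, then 129, 224 and 101 in HFD_DSS. The HFD_DSS libraries were the lowest of all, and the gene fell with DSS on the high-fat diet (−1.62, limma adjusted p = 0.0228), between the diets under DSS (−2.03, limma adjusted p = 0.0371) and with the mean diet effect (−1.36, limma adjusted p = 0.0244). Its change with DSS on the CD diet was −0.29 (limma adjusted p = 0.626), and the difference of both DSS effects did not pass the test (−1.33, limma adjusted p = 0.958). Cyp2c29, a CAR target, fell with the mean diet effect by 1.01 (limma adjusted p = 0.0376). Por, the electron donor of these oxidases, rose by 0.62 and Cyp3a13 by 0.93 with the mean DSS effect (limma adjusted p = 0.0109 and 0.00457). The classical CAR target Cyp2b10 was under the test's minimum, at up to 1.66 FPKM (CD 1), and was listed at 0 in all 3 HFD_DSS libraries. The members of these Cyp2 and Cyp3 families are close copies of each other, so their values are uncertain.

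**Figure D4:**
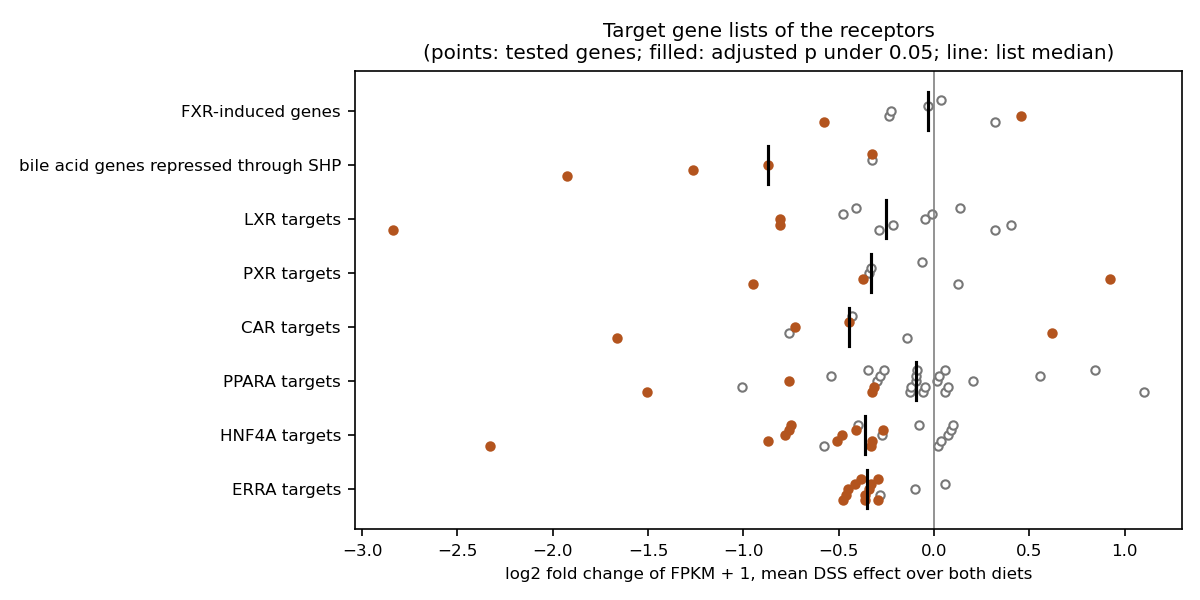
Log2 fold changes of FPKM + 1 with the mean DSS effect (x axis) for the tested genes of 8 target lists (y axis); filled points passed the test and black lines are list medians. The medians of the HNF4A and ERRA lists are −0.36 and −0.35, and no filled point of either lies above 0.

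As a description over the 12 libraries, the gene whose log2 level was most like that of Hnf4a was Msrb3 (Pearson r = 0.98), and Gadd45b (0.97) was also among the highest. Those most like Esrra were Cyp2f2 (0.94), Park7 (0.93) and Prodh (0.92), and those most like Ppara were Thrap3 (0.95), Hbp1 (0.92) and Bcl2l13 (0.91). The first in likeness was Timm17a for Nr1h4 (0.91), Glt1d1 for Nr0b2 (0.91), Pcsk4 for Nr5a2 (0.85), Nap1l4 for Nr1h3 (0.93), Gsk3a for Nr1i2 (0.81), Pip4k2c for Nr1i3 (0.83) and Cipc for Rxra (0.88). Between members, Nr0b2 and Nr1i2 had the highest r, 0.78, and Hnf4a and Esrra the lowest, −0.77. After each group's mean was taken out these were 0.87 and −0.12. The points share libraries and groups, and each value was the highest of many.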

How the data were processed

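RNA of liver was prepared by Qiagen RNeasy and sequenced from SMARTer libraries, per the labels' protocols. Reads were placed on mm10, per the submitters' processing notes; the sources used here name no aligner or counter. The authors deposited FPKM for each gene, normalised to length and depth, with 1 column per library. Exon lengths turned 97.0 to 97.3% of the values under 500 fragments into whole numbers within 0.02, which gave the depth. Symbols were found for 54409 IDs (99.8%).

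Genes reaching 1 FPKM in 3 or more libraries (10806) were fitted as log2(FPKM + 1) with limma 3.58.1 in R 4.3.3 (4 group means, 12 libraries, empirical Bayes with trend, two-sided, Benjamini-Hochberg over all genes tested, threshold 0.05) for 7 comparisons. The pseudocount understates changes of low genes. "Mean DSS effect" and "mean diet effect" average both diets or both DSS states. The fit was tested on simulated data.

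The members, lists and tests were chosen with earlier results of these data known. Named were all members, up to 4 called genes per list and comparison, 20 genes whatever their test gave, and the genes most like each member; other called genes were named after their values were seen. The motifs ATTAAC and TCAAGG were added after the windows were seen. Some genes that this rule names are not reported here, though the counts include them.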

Additional observations from a re-analysis of the deposited data

How the results depend on the processing

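Alternatives were a pseudocount of 0.1, quantile, TPM or median-of-ratios scaling, no filter or one at 5 FPKM on average, voom on recovered fragments, only the groups compared, library weights, a robust prior, the replicate number as a block, and leaving out libraries. List counts under them were added after the data were seen. No called value changed sign, while values that did not pass the test did in some alternatives (for the mean DSS effect Nr0b2 in 8 of 23, −0.30 to 0.14). For the mean DSS effect 2 members were called in the main analysis and 2 to 3 with each library left out. The count was 3 with quantile and with median-of-ratios scaling (Rxra added), and 4 with library weights (Nr5a2 and Rxra added). Over all genes these 3 settings called 2085, 2208 and 4259, against 2157 in the main analysis. The calls added with library weights thus came with a rise over all genes. On the CD diet 1 member was called in the main analysis. The count was 0 with no filter, with only the groups compared and with the replicate block. It was 2 with library weights and without the 3 libraries that stood apart, and 0 to 2 with each library left out. Over all genes these settings called, in that order, 157 (of 25911 tested), 220, 290, 2592, 1941 and 63 to 1285, against 519. On the high-fat diet 2 were called in the main analysis. The count was 3 with quantile scaling and with library weights (Rxra added), and 1 with no filter, with TPM and with the replicate block. It was 0 with only the groups compared, and 0 to 2 with each library left out. Over all genes these settings called, in that order, 498, 2820, 130 (of 25911 tested), 333 (of 13268), 278, 122 and 9 to 910, against 522. Without the 3 libraries Ppara was added (−0.79, limma adjusted p = 0.0291) and Esrra lost. Cause was not tested. The labels do not say what the library numbers stand for. Over all genes, deviations of same-numbered libraries correlated at −0.356 to 0.258, with 5 of 18 pairs over 0.1. For libraries of different numbers the range was −0.360 to 0.461, with 11 of 36 over 0.1. The highest of these was CD_DSS 1 with HFD_DSS 2, both among the libraries that stood apart. Such libraries can mask a pairing, so these values cannot decide whether the numbers pair the libraries.

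Counts of lowered genes for the mean DSS effect ranged from 3 to 9 for other nuclear receptors (6 in the main analysis), 0 to 2 for coregulators (2), 0 to 3 for FXR-induced genes (1), 2 to 5 for bile acid genes (4), 1 to 6 for LXR (3), 1 to 4 for PXR (2), 1 to 6 for CAR (3), 1 to 12 for PPAR alpha (4), 7 to 13 for HNF4 alpha (11) and 6 to 12 for ERR alpha (11). Counts of raised genes reached 3 for other nuclear receptors (1 in the main analysis), and 2 for FXR-induced genes (1), LXR (0) and PPAR alpha (0). They reached 1 for PXR (1), CAR (1) and HNF4 alpha (0), and stayed at 0 for coregulators, bile acid genes and ERR alpha. Over all genes the calls for the mean DSS effect were 2157, and 1306 to 2668 with each library left out. On the high-fat diet they were 522, and 9 without HFD 2. With 3 libraries a group, intervals as wide as those of Nr0b2 and Ppara leave changes of 0.5 on the log2 scale undetectable.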
